A study of Mus musculus with 3 samples.

Results

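The cDC1 lineage transcription factors described here are 7 genes, *Irf8*, *Batf3*, *Id2*, *Nfil3*, *Zbtb46*, *Zfp366* and *Bcl6*, out of the 32285 genes counted, of which 18137 had a UMI in the cDC1s. They were chosen by name, as regulators with a known part in the formation or identity of type 1 conventional dendritic cells (cDC1s), and all 7 were counted in every library. Their UMIs, the unique molecules counted for a gene, were followed from early through resting to activated cDC1s and into other sorted cells. The data are scRNAseq of cells sorted on day 5 from MCA205 LA-OVA tumours, a transplantable fibrosarcoma that carries the model antigen OVA and was implanted on both flanks of C57BL/6J mice aged 6 to 20 weeks. Pre-cDCs, cDC1s and cDC2s were sorted separately and mixed in set proportions, so the numbers of barcodes are not abundances in the tumour. Tumours of 37 mice (25 male, 12 female) were pooled for the WT library, of 31 (15 male, 16 female) for sGSN-/-, which lacks secreted gelsolin, and of 27 (10 male, 17 female) for sGSN-/-Clec9a-/-, which also lacks the receptor DNGR-1. Each genotype had 1 library. Values of 3 libraries are given throughout in the order WT, sGSN-/- and sGSN-/-Clec9a-/-.

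cDC1s arise from bone marrow progenitors in which IRF8, an interferon regulatory factor, is raised and then held by BATF3, a basic leucine zipper protein of the AP-1 superfamily. NFIL3, a basic leucine zipper repressor, acts upstream by lowering ZEB2, and ID2 has no DNA-binding domain of its own but captures E proteins that would favour plasmacytoid fate. ZBTB46 is a zinc finger repressor shared by conventional dendritic cells, ZFP366 (DC-SCRIPT) is a zinc finger protein needed for full cDC1 identity, and BCL6 is a zinc finger repressor on which cDC1s depend.

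The libraries held 12763, 8173 and 9273 barcodes with 176578136, 109270958 and 113411930 UMIs, and a deposited table placed 5806 barcodes in 12 clusters of cDC1s. Cluster 11, with 60 cells, a median of 2348 UMIs and a median mitochondrial share of 8.07%, was left out, which left 5746 cDC1s. Barcode sequences shared between libraries numbered 26 for WT and sGSN-/-, 28 for WT and sGSN-/-Clec9a-/- and 27 for sGSN-/- and sGSN-/-Clec9a-/-. As a check of the labels, *Clec9a* stood at 168, 168 and 0.0933 CPM (UMIs of a gene scaled to a common total) in cDC1s, the last of these from 2 UMIs. *Gsn* stood at 152, 169 and 167 CPM, but its counts join all transcripts of the gene and so do not check the sGSN-/- label. The 7 cDC1 markers *Xcr1*, *Clec9a*, *Cadm1*, *Itgae*, *Tlr3*, *Wdfy4* and *Naaa* summed to 2535, 2451 and 2559 CPM in the cDC1s, where all 7 were at 1 CPM or more and *Naaa* was the most abundant. The 3 B cell markers together stayed under 1 CPM there, and the NK cell markers summed to 10.1, 37.9 and 17.5 CPM, 4 of 7 at 1 CPM or more, led by *Gzma*.

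UMIs of each member were added up over the cells of a cluster in each library, and levels are given in CPM as mean ± SD over the 3 libraries (n = 3). The SD therefore also holds any difference between genotypes. The states are those of the study, with clusters 4 and 1 as early, clusters 5, 2, 3, 6 and 0 as resting and clusters 7, 9, 8 and 10 as activated. Cluster 8 is marked by *Ccr7*, the receptor that guides dendritic cells to lymph nodes, at 2001 ± 723 CPM, and cluster 10 by the chemokine gene *Cxcl9* at 4832 ± 130.1 CPM. Differences were tested with edgeR's quasi-likelihood test, and a gene is called where the adjusted p is under 0.05. The p sets the difference between groups against the spread between libraries. Since the clusters had been drawn on the same counts, it does not tell whether a cluster exists. Levels of different genes are not compared with each other.

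*Irf8* (ENSMUSG00000041515, chromosome 8, 120736358 to 120756694, plus strand, overlapping *Gm20388*) had its highest levels in 3 resting clusters. Cluster 2 held 1536 ± 59.9 CPM, cluster 6 1533 ± 45.9 and cluster 3 1502 ± 35.1, and the ranges of these neighbours overlapped. The library ranges were apart from there to cluster 9 (1289 ± 39.1 CPM), which overlapped cluster 7 (1224 ± 54.5 CPM). The next step down, again with ranges apart, led to cluster 5 (1122 CPM), followed with overlapping neighbours by clusters 10 (1105), 0 (1012), 1 (995) and 4 (952). Cluster 8 was lowest at 676 ± 49.1 CPM and apart from all other clusters, with 2.27 times less *Irf8* than cluster 2. Resting cells were thus not uniform, since clusters 5 and 0 lay near the early clusters and clusters 2, 3 and 6 well above them.

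*Batf3* (ENSMUSG00000026630, chromosome 1, 191097847 to 191108945, plus strand), whose product pairs with JUN proteins and sustains *Irf8*, followed another order. Cluster 10 was highest at 384 ± 62.9 CPM and apart from cluster 2 (308 ± 11.1). Clusters 2, 7 (299), 3 (294), 4 (266) and 5 (265) then followed with overlapping neighbours. Below them stood clusters 1 (247 ± 3.70) and 0 (243 ± 1.63), each apart from its neighbours but close in level. Clusters 9 (222), 6 (204) and 8 (164 ± 44.1) were lowest and overlapped in sequence, and the 2 ends differed 2.35-fold. Both ends of the order were thus activated clusters.

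*Id2* (ENSMUSG00000020644, chromosome 12, 25093799 to 25097140, minus strand) stood far higher in 1 activated cluster than anywhere else. Cluster 8 held 1082, 1082 and 1056 CPM in the 3 libraries, against 649.8 ± 47.5 CPM in cluster 2. Cluster 10 was lowest at 380.5 ± 78.4 CPM, 2.82 times under cluster 8, and all neighbours below cluster 8 overlapped. For *Nfil3* (ENSMUSG00000056749, chromosome 13, 52967209 to 52981073, minus strand) clusters 10 (136 ± 52.6 CPM), 8 (151, 132 and 107 in the 3 libraries), 0 (122 ± 4.59) and 6 (113 ± 7.22) came first and overlapped in sequence. They were followed by clusters 4, 1, 5, 3 and 7, with means from 93.4 down to 70.2 CPM. Clusters 2 (46.4 ± 6.42) and 9 (43.2 ± 13.0) were lowest and apart from cluster 7, with 3.15 times less in cluster 9 than in cluster 10.

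Among the zinc finger members, *Zbtb46* (ENSMUSG00000027583, chromosome 2, 181387762 to 181459426, minus strand, overlapping *Gm22708*) was highest in cluster 6 at 89.2 ± 3.71 CPM, apart from cluster 2 (74.5 ± 5.31). Clusters 2, 3 (69.3), 8 (61.5) and 9 (59.7) overlapped in sequence, and the remaining 6 clusters lay lower, from 43.9 in cluster 7 to 30.1 ± 4.83 in cluster 1. *Bcl6* (ENSMUSG00000022508, chromosome 16, 23965052 to 23988852, minus strand, overlapping *Gm37419* on the other strand) was also highest in cluster 6 at 149 ± 16.5 CPM and apart from the rest, which ran with overlapping neighbours from cluster 3 (95.9 ± 12.7) to clusters 4 (51.6) and 1 (50.5). *Zfp366* (ENSMUSG00000050919, chromosome 13, 99184823 to 99250656, plus strand) was counted at 54.9 ± 1.64 CPM in cluster 6 and 51.6 ± 15.7 in cluster 10, and from 33.4 down to 23.0 CPM in the other 9. None of its neighbours in the order was apart at this depth. Cluster 6 led for all 3 of these genes and was also the shallowest of the 11 (median 8530.5 UMIs), with the nuclear transcript *Malat1* at 36069 ± 3267 CPM, against 28299 ± 1939 CPM over resting cDC1s. Over the 11 clusters *Malat1* ran from 13783 ± 818 CPM in cluster 5 and 14484 ± 597 in cluster 4 to 50740 ± 3466 CPM in cluster 8, with 18036 ± 4818 CPM in cluster 10. The part of depth or RNA quality in these levels was not tested. How reads of overlapping genes were counted, and with which strand, is not given in the sources at hand, so the levels of *Irf8*, *Zbtb46* and *Bcl6* are uncertain to that extent.

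**Figure D1:**
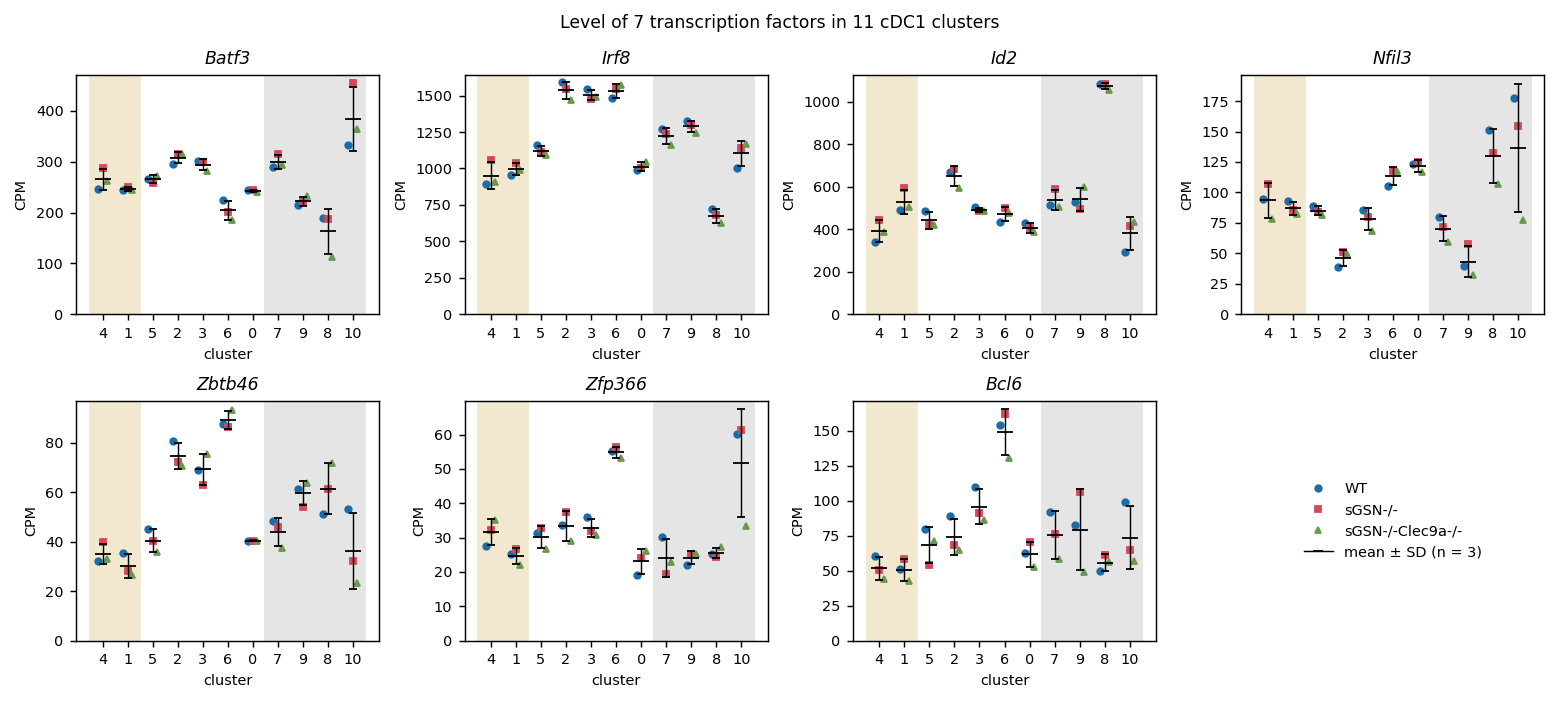
Level (CPM, vertical axes from 0) of each of the 7 genes in 11 cDC1 clusters (horizontal axes, from early on tan through resting on white to activated on grey), with 1 point per library and the mean ± SD over 3 libraries. *Id2* in cluster 8 (mean 1073 CPM) and *Irf8* in cluster 8 (mean 676 CPM) lie at opposite ends of their orders.

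The first comparison asks which of these regulators differ between early and resting cDC1s. *Irf8*, *Zbtb46* and *Bcl6* were higher in resting cells in all 3 libraries. *Irf8* went from 932, 1044 and 961 CPM in early to 1329, 1275 and 1302 CPM in resting cDC1s, and the 2 sets of libraries did not overlap (log2 fold change 0.41, standard error 0.093, higher in 3 of 3 libraries, adjusted p = 0.00112, quasi-likelihood test of edgeR, Benjamini-Hochberg adjustment). *Zbtb46* stood at 34.3, 32.2 and 28.8 and then 61.8, 55.2 and 59.9 CPM, with every resting value above every early one (log2 fold change 0.89, standard error 0.10, higher in 3 of 3 libraries, adjusted p = 1.1e-07). *Bcl6* stood at 54.6, 55.5 and 43.0 and then 90.6, 78.0 and 73.1 CPM, likewise without overlap (log2 fold change 0.66, standard error 0.13, higher in 3 of 3 libraries, adjusted p = 2.4e-04). These were 3 members called higher and 0 lower by edgeR, against 18.1% and 16.1% of the 8536 genes tested (34.2% either way). At an unadjusted p under 0.05 there were 4, the further one being *Zfp366* with a log2 fold change of 0.22 (adjusted p = 0.0943), and 0 of these 4 was lower in resting cells. *Zfp366* passed in 1 of 11 alternatives, with only the compared groups in the fit, where 4 members were called. The values of *Batf3*, *Id2* and *Nfil3* were 0.086, 0.043 and -0.010, and none of these 3 passed. *Id2* was higher in resting cells in 2 of 3 libraries and *Nfil3* in 1 of 3. DESeq2 called the same number of members, 3 higher and 0 lower. The number of genes called was 2919, and it was 1505 without the WT library and 1908 without the sGSN-/- library, while the same 3 members were called each time.

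Genes of the 4 lists were read in the same comparison. Of the 14 cDC1 identity genes, 13 were higher in resting cells and 0 lower, with a median log2 fold change of 0.66 against 0.013 over all genes tested. They included *Cadm1* (2.45), a cell adhesion gene, and *Xcr1* (0.96), the chemokine receptor that defines cDC1s. Of 16 further dendritic cell transcription factors tested, 6 were higher, 3 lower and 7 not called. *Zeb2*, the target of NFIL3 repression, stood at 24.7, 17.1 and 22.4 CPM in early and 6.77, 5.05 and 4.11 CPM in resting cells, a log2 fold change of -1.97, whereas *Mycl* (1.01) and *Cebpa* (0.99) were higher in resting cells. The AP-1 and BATF family had 5 of 10 genes higher, among them *Fosb* (1.01) and *Fos* (0.84), and 0 lower. Of 4 E protein and ID protein genes tested, *Id1* (-0.47) and the E protein gene *Tcf4* (-0.60) were lower by edgeR, and DESeq2 called 1 of these 2. *Malat1* was 20375 ± 475 CPM in early and 28299 ± 1939 CPM in resting cells, and the part of RNA quality in this comparison was not tested. In early cells 22.7% had a *Cd209a* UMI, a marker of cDC2s, against 4.69% of resting cells, and 12.9% against 2.74% had a UMI of *Siglech*, a marker of plasmacytoid cells. Within early cDC1s *Irf8* was 942 ± 139 CPM in 302 cells with *Cd209a* and 992 ± 33.1 CPM in the 1030 without, and *Zbtb46* was 29.9 ± 8.58 and 32.5 ± 3.78 CPM, so both groups overlapped and stayed under the resting level.

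Activated clusters 7 and 9 were compared with the same resting sums as clusters 8 and 10, so the 4 comparisons share their reference. In cluster 7 edgeR called 0 of the 7 members, against 11.8% of genes called higher and 6.1% lower (17.9% either way), and 3 had an unadjusted p under 0.05. These were *Batf3* (log2 fold change 0.26), *Zbtb46* (-0.32) and *Zfp366* (-0.27). *Zbtb46* stood at 48.2, 45.9 and 37.6 CPM in cluster 7 against 61.8, 55.2 and 59.9 CPM in resting cells, without overlap. It passed in 4 of 11 alternatives, among them DESeq2 (-0.33, adjusted p = 0.0407, DESeq2's Wald test), the only member DESeq2 called, with adjusted p from 0.0167 to 0.339 over the alternatives. With the library as a block edgeR called 2 members, *Zbtb46* (-0.31, adjusted p = 0.0466) and *Batf3* (0.26, adjusted p = 0.0492, from 0.0166 to 0.472 over the alternatives). The number of genes called, 1525, was 861 without the WT library and 847 without the sGSN-/- library. Scaling by library size alone moved the median of all genes from -0.019 to -0.12 and the calls from 1004 higher and 521 lower to 773 and 928. Of the lists, the AP-1 and BATF family had 1 gene of 10 called, *Batf2* (2.72), an interferon-induced relative of *Batf3*. The further dendritic cell factors had 3 of 16 higher, with *Tcf4* at 1.44, and 1 lower, and the E protein and ID protein list had *Tcf4* as its 1 call among 4. Of the 14 identity genes 1 was higher, the interferon-induced *Ifi205* (1.18), and 3 were lower.

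In cluster 9, 1 member was lower and 0 were higher, against 1.32% and 3.99% of genes (5.32% either way). *Nfil3* stood at 39.4, 57.7 and 32.6 CPM in cluster 9 against 88.1, 92.2 and 85.4 CPM in resting cells, with every library of cluster 9 under every resting sum (log2 fold change -1.06, standard error 0.18, lower in 3 of 3 libraries, adjusted p = 2.9e-04, quasi-likelihood test of edgeR, Benjamini-Hochberg adjustment). Resting cluster 2 taken alone (39.1, 51.0 and 49.1 CPM) overlapped cluster 9. The call of *Nfil3* against the resting sums held without each library in turn and was lost with cells thinned to 3900 UMIs (-0.94, adjusted p = 0.0535, from 1.0e-08 to 0.0535 over 11 alternatives). *Irf8* was -0.0049 and *Batf3* -0.26, neither called. Of the AP-1 genes 4 of 10 were higher and 0 lower, led by *Maff* (1.89) and *Jun* (1.18). *Relb* (1.75) and *Zeb2* (1.59) were the 2 of 16 further factors called, both higher, and *Gcsam* (-0.74) the 1 of 14 identity genes, lower. None of the 4 E protein and ID protein genes was called by edgeR or DESeq2, and 0 had an unadjusted p under 0.05. The number of genes called, 454, was 225 without the WT library and 221 without the sGSN-/- library.

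In cluster 8, the *Ccr7* state, *Id2* and *Nfil3* were higher than in resting cells and *Irf8* and *Batf3* lower. *Id2* went from 514, 492 and 473 CPM to 1082, 1082 and 1056 CPM, the smallest spread between libraries of any member in this cluster relative to its level (log2 fold change 1.32, standard error 0.12, higher in 3 of 3 libraries, adjusted p = 9.5e-10, quasi-likelihood test of edgeR, Benjamini-Hochberg adjustment). *Irf8* went from 1329, 1275 and 1302 CPM to 723, 680.1 and 625 CPM, again without overlap (log2 fold change -0.75, standard error 0.097, lower in 3 of 3 libraries, adjusted p = 3.2e-07). *Nfil3* stood at 151, 132 and 107 CPM against 88.1, 92.2 and 85.4 CPM, with all 3 libraries above the resting sums (log2 fold change 0.78, standard error 0.14, higher in 3 of 3 libraries, adjusted p = 3.4e-05). Single resting clusters 0 (122 ± 4.59 CPM) and 6 (113 ± 7.22 CPM) overlapped cluster 8 for *Nfil3*. *Batf3* stood at 189.9, 188 and 113 CPM against 270.0, 269.8 and 266 CPM and was lowest in the sGSN-/-Clec9a-/- library (log2 fold change -0.48, standard error 0.13, lower in 3 of 3 libraries, adjusted p = 0.00321). Its call rested on that library, since without it the log2 fold change was -0.26 (adjusted p = 0.107), and it was also lost with thinned cells, which leave out 57 of the 255 cells of cluster 8 (-0.23, adjusted p = 0.195, from 1.0e-05 to 0.195 over 11 alternatives).

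These are 2 members higher and 2 lower, against 25.7% and 24.0% of all genes, so that 49.7% of genes were called in cluster 8 and a share of 4 in 7 is near this background. *Zbtb46* (0.21) and *Zfp366* (-0.13) did not pass. *Bcl6* stood at 49.4, 61.4 and 56.3 CPM against 90.6, 78.0 and 73.1 CPM and did not pass (-0.34, adjusted p = 0.121). It passed in 4 of 11 alternatives, among them the library as a block (-0.37, adjusted p = 0.0396, from 0.00857 to 0.765 over the alternatives). Scaling by library size alone moved the median of all genes from -0.054 to -0.24 and the calls from 2191 higher and 2051 lower to 1718 and 2915. With that scaling *Id2* was 1.12, *Nfil3* 0.59, *Batf3* -0.67 and *Irf8* -0.94, which keeps each on its side of the shifted median.

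Cluster 8 also differed in the other regulators. Of 16 further dendritic cell factors 7 were higher, led by *Relb* (4.51), an NF-kB subunit of activated dendritic cells, *Zeb2* (2.27), *Prdm1* (2.18) and *Irf4* (1.97), and 6 were lower, among them *Mycl* (-1.80) and *Cebpa* (-1.48). *Nfil3* and its repression target *Zeb2* were thus both higher in cluster 8 than in resting cells. Of the AP-1 and BATF family 6 of 10 were lower, including *Fos* (-1.50), *Jun* (-1.36) and *Batf* (-1.02), and 2 were higher, *Batf2* (2.41) and *Maff* (1.08). Of the 14 cDC1 identity genes 11 were lower and 0 higher, with *Tlr3* at -2.83 and *Naaa* at -2.29, and the list's median was -1.31 against -0.054 over all genes. Among the E protein and ID protein genes *Tcf3* (0.87) was higher and *Id1* (-1.29) lower, of 4 tested. The cDC2 markers summed to 1232, 1039 and 778 CPM in cluster 8 against 171, 149 and 162 CPM in resting cells, with 7 of 7 at 1 CPM or more. Both sums were mostly *Tbc1d4*, at a mean of 961 CPM in cluster 8 and 138 CPM in resting cells, so they say little of the other cDC2 markers. *Cd209a* itself was at 7.45 ± 3.09 CPM. Cycling markers summed to 74.6, 93.7 and 15.5 CPM in cluster 8 against 19.0, 18.4 and 15.6 CPM, NK cell markers to 15.5, 129 and 21.3 against 10.1, 33.5 and 18.2 CPM, T cell markers to 16.5, 29.1 and 3.88 against 2.94, 3.94 and 3.44 CPM, plasmacytoid markers to 438, 533 and 332 against 291, 315 and 290 CPM, and monocyte or macrophage markers to 989, 202 and 530 against 1025, 900 and 968 CPM. *Malat1* was higher in cluster 8 than in resting cells as well (50740 ± 3466 against 28299 ± 1939 CPM). The part of these genes in the members' levels was not tested.

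Cells of cluster 8 differed in how many of the 7 cDC1 markers gave a UMI, and *Id2*, *Batf3* and *Irf8* were highest where none did. This split was made after the data were seen and carries no test. The 101 cells without any marker had a median of 5785 UMIs, the 81 cells with 1 to 3 markers 11275 and the 73 cells with 4 to 7 markers 16238, so depth differs with the split. *Clec9a* gave 0 UMIs in cluster 8 of the sGSN-/-Clec9a-/- library. No cell there reached all 7 markers, so the groups are not defined alike in the 3 libraries. *Id2* was 1529 ± 58.3 CPM without a marker, 1153 ± 94.5 with 1 to 3 and 791 ± 116 with 4 to 7, and the libraries of the first group lay above all others. *Batf3* was 293 ± 51.8, 129.6 ± 71.2 and 121 ± 23.1 CPM in the same groups, so its low level in cluster 8 lay in the cells with markers, while those without stood at 348, 285 and 246 CPM, around the resting mean of 268 CPM. *Irf8* was 860.2 ± 42.1, 529 ± 238 and 668 ± 85.0 CPM, under the resting mean of 1302 CPM in all 3 groups, and the libraries without a marker lay above the others. For the other 4 members the libraries without a marker overlapped each of the other groups. With cells thinned to 3900 UMIs and grouped anew by the markers still detected (84, 80 and 34 cells, not the same cells as before), *Batf3* was 289 ± 43.4, 132 ± 54.4 and 79.6 ± 52.3 CPM. Thinned *Id2* was 1442 ± 163, 917 ± 162 and 906 ± 162 CPM, so the cells without a marker in this second grouping were highest for both genes, and its other groups overlapped. Thinned *Irf8* was 720.4 ± 77.4, 564 ± 33.03 and 645 ± 63.7 CPM, and there the cells without a marker overlapped those with 4 to 7. *Ccr7* was 2954 ± 521, 2826 ± 515 and 1015 ± 646 CPM and *Fscn1*, a bundling protein of mature dendritic cells, 2351 ± 657, 815 ± 299 and 91.6 ± 97.7 CPM, so the cells with 4 to 7 markers had the least of both. Without thinning the cDC2 marker *Tbc1d4* was 1634 ± 219, 1183 ± 215 and 509 ± 152 CPM in the same order. *Cd209a* (7.91 ± 2.74, 15.1 ± 16.8 and 3.53 ± 3.47 CPM) and *Itgam* (2.61 ± 2.60, 5.07 ± 6.40 and 6.95 ± 6.01 CPM) did not fall that way. The part of cDC2 genes in the members' levels was not tested.

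**Figure D2:**
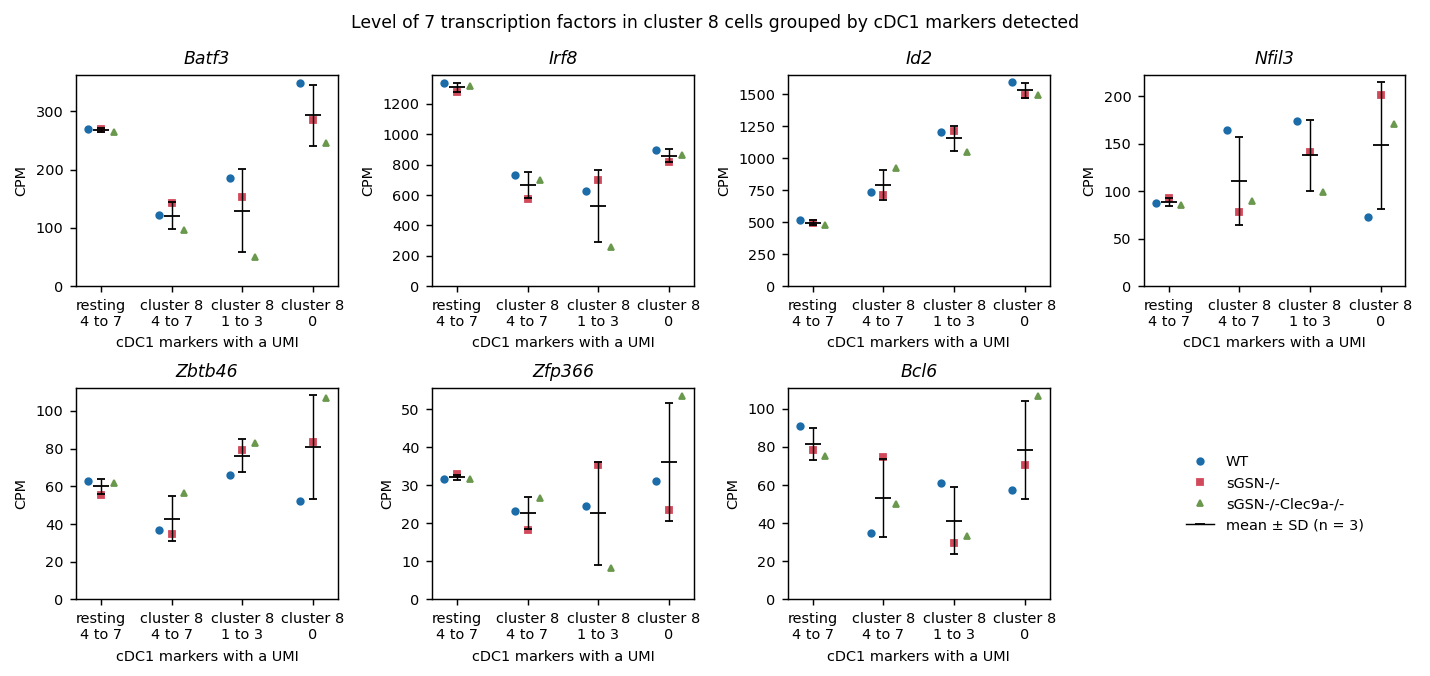
Level (CPM, vertical axes from 0) of the 7 genes in resting cells with 4 to 7 of the 7 cDC1 markers detected and in cluster 8 cells with 4 to 7, 1 to 3 or 0 of them (horizontal axes), with 1 point per library and the mean ± SD over 3 libraries. *Batf3* and *Id2* are highest among cluster 8 cells where no marker was detected (means 293 and 1529 CPM).

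In cluster 10, the *Cxcl9* state of 76 cells, *Batf3*, *Nfil3* and *Zfp366* were higher than in resting cells and *Zbtb46* was lower. *Batf3* stood at 333, 454 and 365 CPM against 270.0, 269.8 and 266 CPM, higher in all 3 libraries and without overlap (log2 fold change 0.50, standard error 0.14, higher in 3 of 3 libraries, adjusted p = 0.0112, quasi-likelihood test of edgeR, Benjamini-Hochberg adjustment). The share of cells with a *Batf3* UMI, given further below, was not higher in every library. *Nfil3* stood at 177, 155 and 77.0 CPM against 88.1, 92.2 and 85.4 CPM, higher in the WT and sGSN-/- libraries but not in the sGSN-/-Clec9a-/- library (log2 fold change 0.60, standard error 0.18, higher in 2 of 3 libraries, adjusted p = 0.0257). *Zfp366* stood at 60.2, 61.2 and 33.5 CPM against 31.4, 32.5 and 30.7 CPM, above all resting sums but overlapping resting cluster 6 at 54.9 ± 1.64 CPM (log2 fold change 0.69, standard error 0.22, higher in 3 of 3 libraries, adjusted p = 0.0307). *Zbtb46* stood at 53.2, 32.2 and 23.4 CPM against 61.8, 55.2 and 59.9 CPM, lower in each library but spread widely (log2 fold change -0.74, standard error 0.24, lower in 3 of 3 libraries, adjusted p = 0.0338). These were 3 members higher and 1 lower, against 8.53% and 6.53% of genes (15.1% either way). The cDC2 markers summed to 308, 693 and 221 CPM in cluster 10 against 171, 149 and 162 CPM in resting cells, plasmacytoid markers to 468, 329 and 472 against 291, 315 and 290 CPM and monocyte or macrophage markers to 262, 390 and 412 against 1025, 900 and 968 CPM, and *Malat1* was 18036 ± 4818 against 28299 ± 1939 CPM. The part of these genes in the members' levels was not tested.

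None of these 4 calls held in all 11 alternatives: *Batf3* and *Nfil3* passed in 8 each, *Zfp366* and *Zbtb46* in 5 each. Without the sGSN-/- library edgeR called 0 members, 3 at an unadjusted p under 0.05, with *Batf3* at 0.35, *Nfil3* at 0.49, *Zfp366* at 0.54 and *Zbtb46* at -0.72. Without the WT library *Nfil3* (0.43) and *Zfp366* (0.63) did not pass, and without the sGSN-/-Clec9a-/- library *Zbtb46* (-0.49) did not pass and *Nfil3* was 0.86. With thinned cells *Nfil3* was 1.23, while *Batf3* (0.37), *Zfp366* (0.73) and *Zbtb46* (-0.56) did not pass. The number of genes called, 1285, was 759 without the WT library and 767 without the sGSN-/- library. DESeq2 split its calls as 1024 higher and 482 lower, where edgeR had 728 and 557. With the library as a block *Irf8* (-0.25, adjusted p = 0.0446, from 0.0342 to 0.604 over 11 alternatives) and *Id2* (-0.39, adjusted p = 0.0292, from 0.00464 to 0.637) also passed, both lower. In cluster 10 38.2% of cells had a *Cd209a* UMI. In 29 such cells *Batf3* was 366 ± 57.4 CPM, against 394 ± 73.4 CPM in the other 47, so *Batf3* was above its resting mean in both, whereas *Irf8* was 789 ± 222 against 1270.4 ± 87.5 CPM. With cells holding a *Cd209a*, *Ncr1*, *Cd3e* or *Siglech* UMI left out everywhere, which removes 42.1% of cluster 10, 34.7% of early and 9.03% of resting cells, edgeR called 0 members in cluster 10, with 3 at an unadjusted p under 0.05. *Batf3* was then 0.41 (adjusted p = 0.0708, from 9.1e-05 to 0.254 over the alternatives) and *Nfil3* 0.20.

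The relatives of *Batf3* were also higher in cluster 10. *Batf2* stood at 21.3, 19.3 and 13.4 CPM against 0.615, 0.372 and 0.747 CPM in resting cells (log2 fold change 4.86), and *Batf* at 53.2, 58.0 and 20.1 against 21.0, 21.3 and 21.8 CPM (1.02), the latter not higher in the sGSN-/-Clec9a-/- library. With *Maff* (0.72) they were the 3 of 10 AP-1 and BATF genes called higher, and *Fosb* (-1.20), *Fos* (-0.96) and *Junb* (-0.61) were the 3 called lower. Of 16 further factors 5 were higher, with *Relb* at 1.87, and 4 lower, with *Klf4* at -1.74. Of the 14 identity genes 8 were lower, led by *Tlr3* (-2.21), and 1 was higher, *Ifi205* (0.89). Of the 4 E protein and ID protein genes edgeR called 0 and DESeq2 1, and 1 had an unadjusted p under 0.05 with edgeR.

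Set against each other, clusters 8 and 10 differed in 5 members, *Id2* and *Zbtb46* higher and *Batf3*, *Irf8* and *Zfp366* lower in cluster 8, against 15.7% and 12.5% of genes (28.2% either way). *Id2* differed most (log2 fold change 1.70, standard error 0.14, higher in 3 of 3 libraries, adjusted p = 9.7e-10, quasi-likelihood test of edgeR, Benjamini-Hochberg adjustment), followed by *Batf3* (log2 fold change -0.98, standard error 0.15, lower in 3 of 3 libraries, adjusted p = 1.4e-05). *Irf8* had the smallest fold of the 5 (log2 fold change -0.50, standard error 0.10, lower in 3 of 3 libraries, adjusted p = 4.8e-04). The calls of *Id2*, *Batf3* and *Irf8* held in all 10 alternatives. For *Id2*, *Batf3* and *Irf8* no library of cluster 8 overlapped cluster 10. *Zbtb46* (0.95, higher in 2 of 3 libraries, adjusted p = 0.00640) did not pass without the sGSN-/- library (0.84), without the sGSN-/-Clec9a-/- library (0.70) or with thinned cells (0.49, adjusted p = 0.514, from 0.00370 to 0.514 over 10 alternatives), and was 1.42 without the WT library. *Zfp366* (-0.82, lower in 3 of 3 libraries, adjusted p = 0.0179) did not pass without the WT library (-0.71), without the sGSN-/- library (-0.64), with thinned cells (-0.65) or with other lineages' marker cells left out (-0.56), with adjusted p from 0.00444 to 0.393. The thinned *Batf3* was -0.60. *Nfil3*, higher than resting in both clusters, was 0.18 between them and was not called, although it passed with other lineages' marker cells left out (0.63, adjusted p = 0.0434, from 0.0434 to 0.936 over the alternatives) and changed sign with thinned cells (-0.31) and with library size alone (-0.031). The number of genes called, 2408, was 1581 without the sGSN-/- library. Scaling by library size alone moved the median of all genes from 0.022 to -0.18 and the calls from 1342 higher and 1066 lower to 954 and 1612. Among the lists, 6 of 10 AP-1 and BATF genes were lower in cluster 8, *Batf2* (-2.45) and *Batf* (-2.03) with *Batf3*, and 1 was higher, *Junb* (0.43). With library size alone 6 were lower and 0 higher, so the call of *Junb* was lost. Of 14 identity genes 7 were lower and 0 higher. Of 16 further factors 5 were higher, including *Relb* (2.64) and *Irf4* (2.19), and 2 lower (2 and 2 with library size alone), and edgeR and DESeq2 called 0 of 4 E protein and ID protein genes, with 0 at an unadjusted p under 0.05.

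To place the members against cells of another lineage, barcodes outside the cDC1 table with at least 1 UMI of *Cd209a*, a lectin gene of cDC2s and monocyte-derived cells, were summed in the same way. There were 4074, 1906 and 2535 such barcodes, with a median of 13223 UMIs against 13546 in cDC1s. All 7 members were lower in them by edgeR, against 28.7% of the 12944 genes tested called lower and 31.8% higher (60.4% either way). *Irf8* stood at 191, 278 and 227 CPM against 1219, 1181 and 1194 CPM in cDC1s, the largest difference among the 7 (log2 fold change -2.55, standard error 0.11, lower in 3 of 3 libraries, adjusted p = 9.3e-08, quasi-likelihood test of edgeR, Benjamini-Hochberg adjustment). *Batf3* stood at 70.3, 80.8 and 84.0 CPM against 262, 269 and 261 CPM (log2 fold change -1.94, standard error 0.072, lower in 3 of 3 libraries, adjusted p = 3.8e-08), and *Id2* at 174, 207 and 204 against 514, 543 and 490.5 CPM (log2 fold change -1.58, standard error 0.071, lower in 3 of 3 libraries, adjusted p = 1.1e-07). No library of the *Cd209a* barcodes overlapped the cDC1s for these 3. *Zfp366* (-1.76), *Zbtb46* (-1.49) and *Bcl6* (-1.44) were also lower in 3 of 3 libraries, with *Zbtb46*, a factor shared by both cDC subsets, still at 20.7 ± 2.94 CPM. *Malat1* was lower too, at 15228 ± 1772 against 27056 ± 1688 CPM, and the part of RNA quality in these levels was not tested.

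*Nfil3* was the exception in size, at 83.5, 83.0 and 85.8 CPM against 89.8, 92.7 and 81.0 CPM (log2 fold change -0.24, standard error 0.056, lower in 2 of 3 libraries, adjusted p = 0.00446). Its call was lost with scaling by library size alone (-0.063, adjusted p = 0.415) and without the sGSN-/- library (-0.19, adjusted p = 0.0597), with adjusted p from 5.9e-04 to 0.415 over 13 alternatives. That scaling moved the median of all genes from 0.0088 to 0.19 and the calls from 4110 higher and 3712 lower to 5574 and 2246. Where barcodes with an *Xcr1*, *Clec9a*, *Ncr1* or *Siglech* UMI were left out, 5849 remained, and *Irf8* was -4.13, further from the cDC1s. *Irf8* was 329 ± 48.0 CPM in the 1839 barcodes with 1 *Cd209a* UMI and 187 ± 35.8 CPM in the 2416 with 11 or more, and *Batf3* 76.3 ± 0.663 and 85.7 ± 10.1 CPM. The *Cd209a* barcodes also held monocyte or macrophage markers, whose 9 genes summed to 2783, 2809 and 3747 CPM against 922, 767 and 883 CPM in cDC1s, with *Lyz2* the most abundant. Cycling markers summed to 179, 302 and 256 CPM against 21.4, 24.8 and 21.9 CPM, and NK cell markers to 147, 350 and 280 CPM against 10.1, 37.9 and 17.5 CPM. Without barcodes holding a *Mki67* or *Top2a* UMI *Irf8* was -2.68 and *Batf3* -2.12, and with barcodes of 3 or more *C1qa* UMIs left out *Irf8* was -2.48 and *Batf3* -2.01.

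The lists went with this contrast in different ways. Of the 14 cDC1 identity genes 13 were lower and 0 higher, with a median of -2.80 against 0.0088 over all genes, *Clec9a* being the 1 not called over libraries of which 1 lacks it. The study sorted cDC1s on XCR1 and identified them by *Xcr1* and *Clec9a*. Lower identity genes outside the table thus follow in part from how the groups were made. Of 17 further factors 9 were higher, led by *Zeb2* (4.14), *Irf4* (3.44), the factor of cDC2s, and *Spib* (3.36), and 4 lower, led by *Mycl* (-2.63). Of the 5 E protein and ID protein genes 3 were higher, *Id3* (2.90), *Tcf4* (2.09) and *Tcf12* (0.40), and 0 lower. The AP-1 and BATF family was divided, with *Fosl2* (1.29), *Batf* (0.35) and *Maff* (0.32) higher and 5 of 10 lower, led by *Fos* (-0.82), a split that scaling by library size alone turned into 5 higher and 3 lower.

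Other barcodes outside the table, grouped by marker UMIs alone, showed where each member is shared. These levels carry no test, and the sort had set out to remove cells positive for B220, Ly6D, NK1.1 or CD88. *Irf8* was 1095 ± 51.3 CPM in 139 barcodes with at least 5 UMIs of the plasmacytoid marker *Siglech* and 679.9 ± 57.0 CPM in 2346 with at least 2 UMIs of the NK cell gene *Ncr1*, but 129 ± 5.43 CPM in 2273 with at least 10 UMIs of the macrophage gene *C1qa*. *Batf3* was 11.2 ± 9.71 CPM in the first group, 8.89 ± 0.228 in the second and 43.6 ± 0.931 in the third. With *Siglech*, *Irf8* was thus near its own level in all cDC1s (1198 ± 19.3 CPM) while *Batf3* was far under its own (264 ± 4.33 CPM). *Id2* was 24.7 ± 12.7 CPM with *Siglech* and 345 ± 15.2 CPM with *Ncr1*, a cell type that depends on it. *Nfil3* was highest of these 3 groups with *C1qa*, at 104 ± 5.97 CPM. *Zbtb46* was 2.95 ± 0.564 CPM with *C1qa*, 6.12 ± 0.631 with *Ncr1* and 19.9 ± 9.60 with *Siglech*. *Zfp366* was 1.61 ± 1.14, 0.870 ± 0.269 and 3.94 ± 6.83 CPM and *Bcl6* 20.4 ± 3.27, 5.55 ± 2.04 and 23.7 ± 7.83 CPM in the same order, so none of the 3 reached its level in cDC1s.

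In 1066 barcodes with at least 2 UMIs each of *Mki67*, a proliferation gene, and *Xcr1*, *Irf8* was 969.8 ± 73.5 CPM, *Batf3* 205 ± 5.46 and *Zbtb46* 33.7 ± 5.85 CPM. The levels of *Irf8* and *Zbtb46* overlapped those of early cDC1s (979 ± 58.2 and 31.8 ± 2.76 CPM), as did *Id2* and *Bcl6*, whereas *Batf3* lay under its early level (253 ± 9.46 CPM) in every library, as did *Nfil3* (64.2 ± 4.67 against 89.2 ± 7.17 CPM) and *Zfp366* (19.6 ± 0.395 against 27.2 ± 1.37 CPM). These barcodes had a median of 25282 UMIs, against 12522 in early cells, and held monocyte or macrophage markers at 1694, 1724 and 2899 CPM and NK cell markers at 166, 286 and 182 CPM, whose part in the levels was not tested. A group of 121 barcodes with at least 2 UMIs each of *Ccr7* and *Fscn1* (56, 54 and 11 per library), chosen after the data were seen, gave a view of the *Ccr7* state outside the cDC1 table. *Id2* was 634, 767 and 1405 CPM, *Nfil3* 241, 143 and 117 CPM and *Batf3* 158, 157 and 189 CPM. *Id2* in these libraries lay above the *Cd209a* barcodes (195 ± 18.3 CPM), and so did *Batf3* (78.3 ± 7.16 CPM) and *Irf8* (549, 549 and 768 against 191, 278 and 227 CPM). The 7 cDC1 markers summed to 108, 167 and 195 CPM in this group, the cDC2 markers to 2247, 1921 and 1692 CPM, mostly *Tbc1d4* (mean 1428 CPM), and the monocyte or macrophage markers to 2106, 3981 and 2010 CPM. NK cell markers summed to 385, 271 and 156 CPM, cycling markers to 223, 57.8 and 410 CPM and T cell markers to 26.1, 24.6 and 345 CPM, the last in the library with 11 barcodes. The part of other cell types in these levels was not tested.

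**Figure D3:**
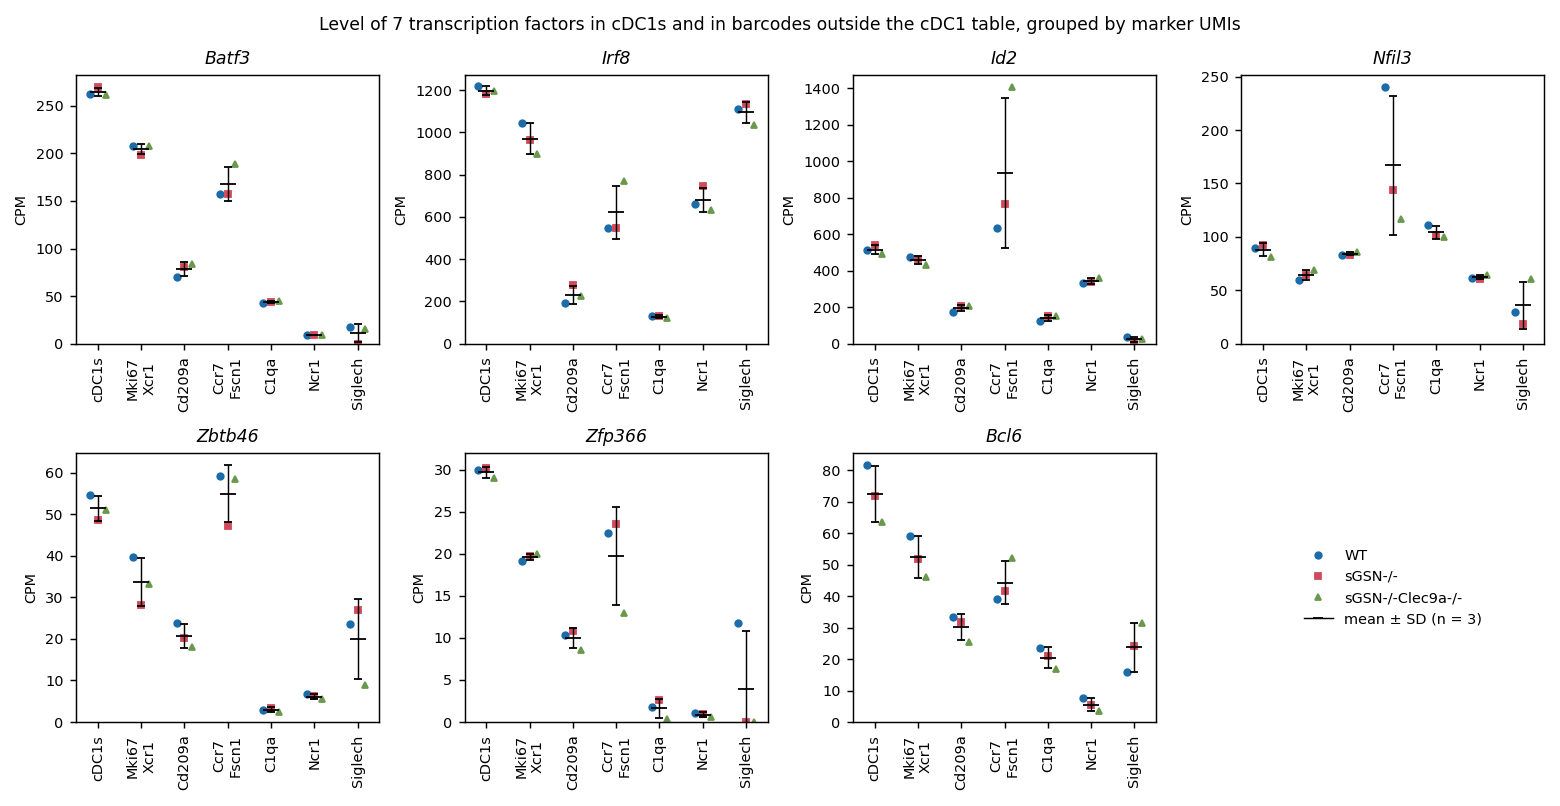
Level (CPM, vertical axes from 0) of the 7 genes in all cDC1s and in barcodes outside the cDC1 table grouped by the marker UMIs named on the horizontal axes, with 1 point per library and the mean ± SD over 3 libraries. *Irf8* is near its cDC1 level with *Siglech* (mean 1095 CPM), where *Batf3* is at a mean of 11.2 CPM.

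The share of cells with a UMI was read from cells thinned to 3900 UMIs each, with the *Ncr1* barcodes, which should lack *Batf3*, *Zbtb46* and *Zfp366*, as background for these 3 (median 9305 UMIs before thinning, against 13930 in resting cDC1s). *Irf8* was detected in 97.8 ± 0.581% of resting and 69.0 ± 8.76% of cluster 8 cells, and in 31.5 ± 5.38% of *Cd209a* barcodes. The *Ncr1* barcodes give no background for *Irf8* and *Id2*, since 83.5 ± 3.53% and 66.2 ± 1.89% of them had a UMI. *Batf3* was detected in 61.1 ± 1.92% of resting cells, 40.8 ± 2.15% of cluster 8 cells and 17.8 ± 1.09% of *Cd209a* barcodes, above the 2.18 ± 0.470% of *Ncr1* barcodes. Single libraries of cluster 8 gave *Batf3* in 38.6% (27.2 to 51.0), 42.9% (32.1 to 54.1) and 40.9% (26.3 to 56.8) of cells (exact Clopper-Pearson 95% intervals, for counting error only), which overlap. *Id2* went from 74.1 ± 1.20% in resting to 86.2 ± 5.84% in cluster 8, and 60.3 ± 4.05% in cluster 10. *Nfil3* was detected in 34.6 ± 8.62% of cluster 8 and 23.6 ± 0.601% of *Cd209a* barcodes, and *Bcl6* in 13.8 ± 1.91% and 10.7 ± 1.45%, against 20.4 ± 0.732% and 1.82 ± 0.629% of *Ncr1* barcodes. For *Zbtb46* (19.6 ± 1.53% of resting cells) and *Zfp366* (11.3 ± 0.176%) most cells gave no UMI at this depth, and the *Ncr1* barcodes gave 1.85 ± 0.480% and 0.187 ± 0.166%. Without thinning the shares in resting cells were 99.5% for *Irf8*, 91.3% for *Batf3*, 92.3% for *Id2*, 49.6% for *Zbtb46* and 30.6% for *Zfp366*, and those in *Ncr1* barcodes 5.72% for *Batf3*, 6.28% for *Zbtb46* and 0.814% for *Zfp366*.

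Genotypes had 1 library each and so no replicate check. The members were read over all cDC1s in the ratios of sGSN-/- to WT and of sGSN-/-Clec9a-/- to sGSN-/-. The log2 ratio of sGSN-/- to WT, with an exact 95% interval for counting error only, was -0.046 (-0.068 to -0.023) for *Irf8* and 0.037 (-0.0098 to 0.084) for *Batf3*. *Bcl6*, at 81.6, 71.9 and 63.7 CPM, had -0.18 (-0.27 to -0.095) for sGSN-/- to WT and -0.17 (-0.28 to -0.070) for sGSN-/-Clec9a-/- to sGSN-/-, and *Nfil3* had 0.046 (-0.035 to 0.13) and -0.20 (-0.29 to -0.10). *Zbtb46* had -0.17 (-0.27 to -0.058) and 0.067 (-0.054 to 0.19). None of the 6 members at 50 CPM or more in at least 1 library of a ratio passed a log2 ratio of 0.322 either way. Nor did *Zfp366*, which was under 50 CPM. The background was 2.22% of 2519 genes in the first ratio, sGSN-/- to WT, and 3.9% of 2462 genes in the second. The median absolute log2 ratio of these genes was 0.075 and 0.091. *Id2*, *Zbtb46* and *Bcl6* were past that median in the first ratio, and *Id2*, *Nfil3* and *Bcl6* in the second. *Bcl6* was lower in each step, and from WT to sGSN-/-Clec9a-/- (81.6 to 63.7 CPM) its difference was past the limit of 0.322. The ratio of sGSN-/-Clec9a-/- to WT was not read for the other members or for the background. With the 11 clusters weighted equally the first ratio of *Irf8* was 0.021. The largest ratios of the 7 with that weighting, again of sGSN-/-Clec9a-/- to sGSN-/-, were -0.30 for *Nfil3* and -0.28 for *Bcl6*.

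The likeness of patterns was described by Pearson's r of log2(CPM + 1) over the 33 sums of 3 libraries and 11 clusters, among 4696 genes with a mean of at least 20 CPM. These points share libraries, depth and the clustering, so r is a description without a test. Among the genes most like *Irf8* were *Fgd2* (0.91), *Itpripl1* (0.89), *Naaa* (0.88) and *Fos* (0.87), 2 of which, *Naaa* and *Fos*, are on the lists above. Among those most like *Batf3* were *Gpr141* (0.81), *Tmem59* (0.79), *Lsm4* (0.78) and *Gnb2* (0.77). For *Id2* they were *Nudt9* (0.89), *Tubb5* (0.85), *Cacnb3* (0.85), *Tspan3* (0.84) and *Dok1* (0.84), and for *Nfil3* *Crem* (0.91), *B3gnt5* (0.84), *Csf2rb* (0.82), *Nfe2l2* (0.77) and *Chd7* (0.77), led by a leucine zipper factor of cAMP signalling. *Zbtb46* was most like *Ehbp1l1* (0.89), *Cbfa2t3* (0.89), *Atf7ip* (0.86), *Zbtb7a* (0.85) and *Mknk2* (0.84), and *Zfp366* most like *Tet2* (0.81), *Glg1* (0.79), *Atp2c1* (0.78), *Pds5a* (0.76) and *Eif4g2* (0.76). For *Bcl6* the 5 were *Ppp1r15b* (0.87), *Dennd1b* (0.81), *Acsl4* (0.81), *Dock10* (0.81) and *Limd1* (0.80). Among the 21 pairs of members r was highest for *Zbtb46* with *Bcl6* (0.67) and *Irf8* with *Bcl6* (0.64) and lowest for *Batf3* with *Id2* (-0.51) and *Irf8* with *Nfil3* (-0.48), while *Irf8* with *Batf3* gave 0.44.

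Promoters of the members were read for short motifs. RefSeq promoter entries (GRCm38.p6) were found for 6 of the 7 members, 8 entries in all, with none for *Zfp366*. In the 250 bases before each start, both strands were searched for TTCNNNGAA (the GAS motif of STAT proteins), a core of the interferon response element, TGANTCA (AP-1), TGACGTCA (CRE) and CANNTG (E-box). Of all 32851 promoters 7.02% held the first, 2.98% the second, 6.75% the third, 1.55% the fourth and 66.2% the fifth. Of the 8 member windows 4 held TTCNNNGAA, in *Batf3*, *Irf8* and both entries of *Bcl6*, 1 held TGANTCA, in *Zbtb46*, 6 held CANNTG, and 0 held either of the others. A match is a description of letters and not a site. The windows of *Irf8* (chr8:120736108-120736357, plus strand) and of the first *Bcl6* entry (chr16:23988853-23989102, minus strand) end where the annotated gene starts. They are printed 5′ to 3′ to show these matches, with TTCNNNGAA in capitals.
*Irf8*: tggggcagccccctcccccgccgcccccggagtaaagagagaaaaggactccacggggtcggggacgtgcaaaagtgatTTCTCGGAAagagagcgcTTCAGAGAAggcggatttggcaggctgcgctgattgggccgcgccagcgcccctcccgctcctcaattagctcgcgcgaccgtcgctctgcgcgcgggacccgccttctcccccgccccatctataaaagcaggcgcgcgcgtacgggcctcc
*Bcl6*: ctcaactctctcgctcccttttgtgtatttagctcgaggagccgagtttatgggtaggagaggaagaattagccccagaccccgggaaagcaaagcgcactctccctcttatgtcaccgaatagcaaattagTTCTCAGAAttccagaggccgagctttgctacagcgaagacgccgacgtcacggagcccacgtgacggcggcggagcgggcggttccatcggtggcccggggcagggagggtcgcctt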

How the data were processed

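The counts are UMIs per gene and barcode as deposited, made by the authors with Cell Ranger 6.0.1 on the mm10 transcriptome, and the deposited cluster table came from Seurat, for which the sources do not agree on a version. In that table the counts of UMIs and genes per cell are also the authors' own, and 2 columns of per-sample values, the UMAP coordinates, were not used. Barcodes outside the table needed at least 200 genes and a mitochondrial share up to 17.5%, and 23138 of them passed. Of all barcodes, in the table or not, 54 had fewer genes and 1213 more had a higher share. No doublet caller was run, and cells with markers of other lineages were left out only as an alternative. UMIs were summed per group and library and fitted with edgeR 4.0.16 (R 4.3.3, TMM scaling, genes kept by filterByExpr, 6 cDC1 groups in 1 fit and the *Cd209a* comparison in its own). The library was not a block in the main fit, which treats sums of 1 library, from the same pool of mice, as independent. Of the 15 pairs of sums within a library, 6 (WT), 5 (sGSN-/-) and 7 (sGSN-/-Clec9a-/-) had deviations with r over 0.1. The lowest r was 0.0031, -0.0025 and 0.026, the median 0.0796, 0.0575 and 0.0962 and the highest 0.307, 0.231 and 0.384, so most pairs were positively related. With the library as a block 2 members were called in cluster 7 (0 without), 5 in cluster 8 (4) and 6 in cluster 10 (4). The number of members called was the same in the other comparisons. DESeq2 1.42.0 was an alternative, with others named in the closing part. The fit was tested on simulated data. Intervals cover counting error only. Of 5746 cDC1s, 234 were under the 3900 UMIs used for thinning and left out of thinned values, among them 57 of 255 cells of cluster 8 and 105 of 3499 resting cells, so thinned values rest on another set of cells. Sums, shares and figures used Python 3.11.15, numpy 2.4.6, pandas 2.3.3, scipy 1.17.1 and matplotlib 3.10.9. The genes named are the 7 members in each comparison, genes of 4 lists (dendritic cell transcription factors, AP-1 and BATF family, cDC1 identity genes, E proteins and ID proteins) by count and, where called or described beside a member, by value, and the 5 genes most like each member, of which some, like 1 group of barcodes, are not reported here. None of the called list genes changed direction with library size scaling or DESeq2. Members and lists were chosen with earlier results of these data known.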

Additional observations from a re-analysis of the deposited data

Results flagged for a closer look

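In 4 cases the CPM ratio of a member went one way in 1 library and the other way in another, each with a 95% counting interval that leaves out 0, a condition added for single libraries. The difference between libraries was not tested, and with 1 library per genotype it cannot be told apart from a difference between pools. For *Id2*, resting against early cDC1s, the log2 ratio was 0.24 in WT and -0.14 in sGSN-/- (0.035 in sGSN-/-Clec9a-/-). For *Bcl6*, cluster 9 against resting, it was 0.45 in sGSN-/- and -0.58 in sGSN-/-Clec9a-/- (-0.13 in WT). For *Nfil3*, *Cd209a* barcodes against cDC1s, it was -0.11 in WT and -0.16 in sGSN-/- against 0.084 in sGSN-/-Clec9a-/-, which makes 2 of the 4 cases.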

How the results depend on the processing

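Of 546 values of members under alternatives, 463 kept their direction and their side of the threshold, 30 no longer passed, 19 came to pass and 34 changed sign, none of these with a call in the comparison as reported. Of 78 counts of genes called, 61 stayed within 1.5 times and 17 did not. Of 78 counts of members called, 67 stayed within 1.5 times and 11 did not.

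Leaving out each library in turn gave 1505 to 2389 genes for resting against early, 847 to 1233 for cluster 7, 221 to 352 for cluster 9, 759 to 875 for cluster 10 (0 to 3 members) and 1581 to 1986 for cluster 8 against 10 (3 to 4 members). Fewer libraries lower the power. It gave *Id2* -0.057 to 0.14 and *Nfil3* -0.048 to 0.025 for resting against early. For cluster 7 it gave *Irf8* -0.022 to 0.055 and *Bcl6* -0.056 to 0.11. For cluster 9 it gave *Irf8* -0.022 to 0.050 and *Bcl6* -0.26 to 0.16, and for cluster 8 against 10 *Bcl6* -0.37 to 0.18.

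With cells thinned to 3900 UMIs, the genes called were 1833 for resting against early, 766 for cluster 7, 241 for cluster 9 (0 members), 2433 for cluster 8, 575 for cluster 10 (1 member) and 1285 for cluster 8 against 10 (3 members). Thinned log2 fold changes with another sign were *Irf8* -0.0045 in cluster 7, *Irf8* 0.035, *Zbtb46* -0.28 and *Bcl6* 0.090 in cluster 9, *Zbtb46* -0.072 and *Zfp366* 0.080 in cluster 8, and *Nfil3* -0.31 in cluster 8 against 10.

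With other lineages' marker cells left out, cluster 10 had 726 genes and 0 members called, *Id2* was -0.068 for resting against early, and in cluster 9 *Irf8* was 0.00014, *Zbtb46* -0.0029 and *Bcl6* 0.014. With library size alone, cluster 7 had 1 member called, *Irf8* -0.090 and *Bcl6* -0.084, and *Nfil3* was -0.031 in cluster 8 against 10. With DESeq2, cluster 7 had 1 member called, and in cluster 9 *Irf8* was 0.030 and *Bcl6* 0.0064. With the library as a block cluster 7 had 2 members called. With only the compared groups in the fit, cluster 7 had 3 members called, cluster 8 against 10 had 1479 genes, and *Irf8* was 0.0065 in cluster 9. Without a filter *Nfil3* was 0.015 for resting against early, *Irf8* -0.027 and *Bcl6* -0.021 in cluster 7, and *Zbtb46* -0.0064 in cluster 9. With resting cells without cluster 6, *Irf8* was -0.017 in cluster 7, and *Irf8* 0.011 and *Bcl6* 0.086 in cluster 9. With clusters weighted equally, the ratio of *Irf8* in sGSN-/- over WT was 0.021. The causes were not tested.

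The *Cd209a* alternative that joins 3 marker limits was chosen after seeing the data. Cluster 10 has 76 cells, and *Zbtb46* (15, 10 and 7 UMIs) and *Zfp366* (17, 19 and 10 UMIs) rest on few UMIs there. With 1 library per genotype, genotype, pool and library cannot be told apart.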
